A study of Mus musculus with 6 samples.

Results

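Cholesterol and fatty acid metabolism was followed through 34 genes in hematopoietic stem cells (HSCs) of wild-type and Cdk19 knockout mice. They cover 17 enzymes of sterol synthesis, 6 genes of SREBP control and sterol transport, 6 genes of fatty acid synthesis and 5 genes of the LXR and efflux arm. A gene was measured by its transcript cluster, the set of probes a whole-transcript array assigns to 1 gene. Where a gene had more than 1 cluster, the one brightest on average over the 6 arrays was taken. Of the 34 genes, 30 had a cluster under their own symbol, out of 30739 genes with a symbol on the array. All 30 passed the filter on dim clusters, at a limit of 4.09 on the log2 scale. Acat2 and Nr1h2 had no such cluster, and the clusters of Srebf1 and Scd2 also carry another gene's symbol, so these 4 were not analysed here. The cluster of Msmo1 carries that symbol and its older form Sc4mol under 1 gene ID and was kept.

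The wild-type group (3 arrays) and the group of CDK19-/- genotype (3 arrays) came from mice 6 to 8 weeks old. Marrow was flushed from tibia, femur and ilium, enriched for lineage-negative cells, stained for HSC markers and sorted. The labels name neither the sort markers, the sex, the strain nor the deleted part of the gene, and give no other allele or treatment. They call the arrays biological replicates without stating how many animals each holds, so p-values measure the spread between these arrays.

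Cells make cholesterol from acetyl-CoA through mevalonate, isoprenoids, squalene and lanosterol. Its supply is sensed in the endoplasmic reticulum. When sterols are scarce, Scap carries the SREBP transcription factors to the Golgi for activation, and they switch on genes of sterol and fatty acid synthesis. When sterols are plentiful, Insig proteins hold Scap back, and oxysterols activate the LXR receptors, which raise sterol export through Abca1 and Abcg1. Insig1 is itself a target of SREBP, so its transcript is widely read alongside the synthesis enzymes. In blood stem and progenitor cells, cholesterol efflux through Abca1 and Abcg1 is known to restrain expansion.

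Values are log2 expression as the authors deposited them, and a change is the knockout mean minus the wild-type mean. Cdk19 itself was lower on every knockout array, going from 12.44 ± 0.06 to 11.47 ± 0.05 (SD over the 3 arrays of a group). A call is a limma p, adjusted by Benjamini-Hochberg, under 0.05. Of 39543 tested clusters 7.8% were called, with 2.96% higher and 4.84% lower, and the median change was 0.00. The groups did not overlap in 26.5% of clusters, and in 11.6% every knockout array was the higher. Correlations between arrays were 0.997 to 0.998 within a genotype and 0.994 to 0.995 between genotypes, across clusters.

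Among the sterol synthesis enzymes, 6 transcripts were higher in the knockout HSCs. Of 16 measured enzymes, 6 rose, 0 fell and 10 did not pass, which is 37.5% called higher beside 2.96% of all tested clusters. At an unadjusted p under 0.05, 10 were higher and 0 lower. The 6 were Hmgcs1, Idi1, Fdps, Sqle, Cyp51 and Hsd17b7, with rises between 1.3-fold and 1.75-fold. Changes over the 16 ran from -0.01 to 0.81 with a median of 0.29, and 15 of 16 were positive, beside 50.7% of all tested clusters. In 12 of 16 enzymes every knockout array lay above every wild-type array, beside 11.6% of all clusters. The enzymes share a pathway and the same 6 arrays, so these counts are a description of the list.

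**Figure D1:**
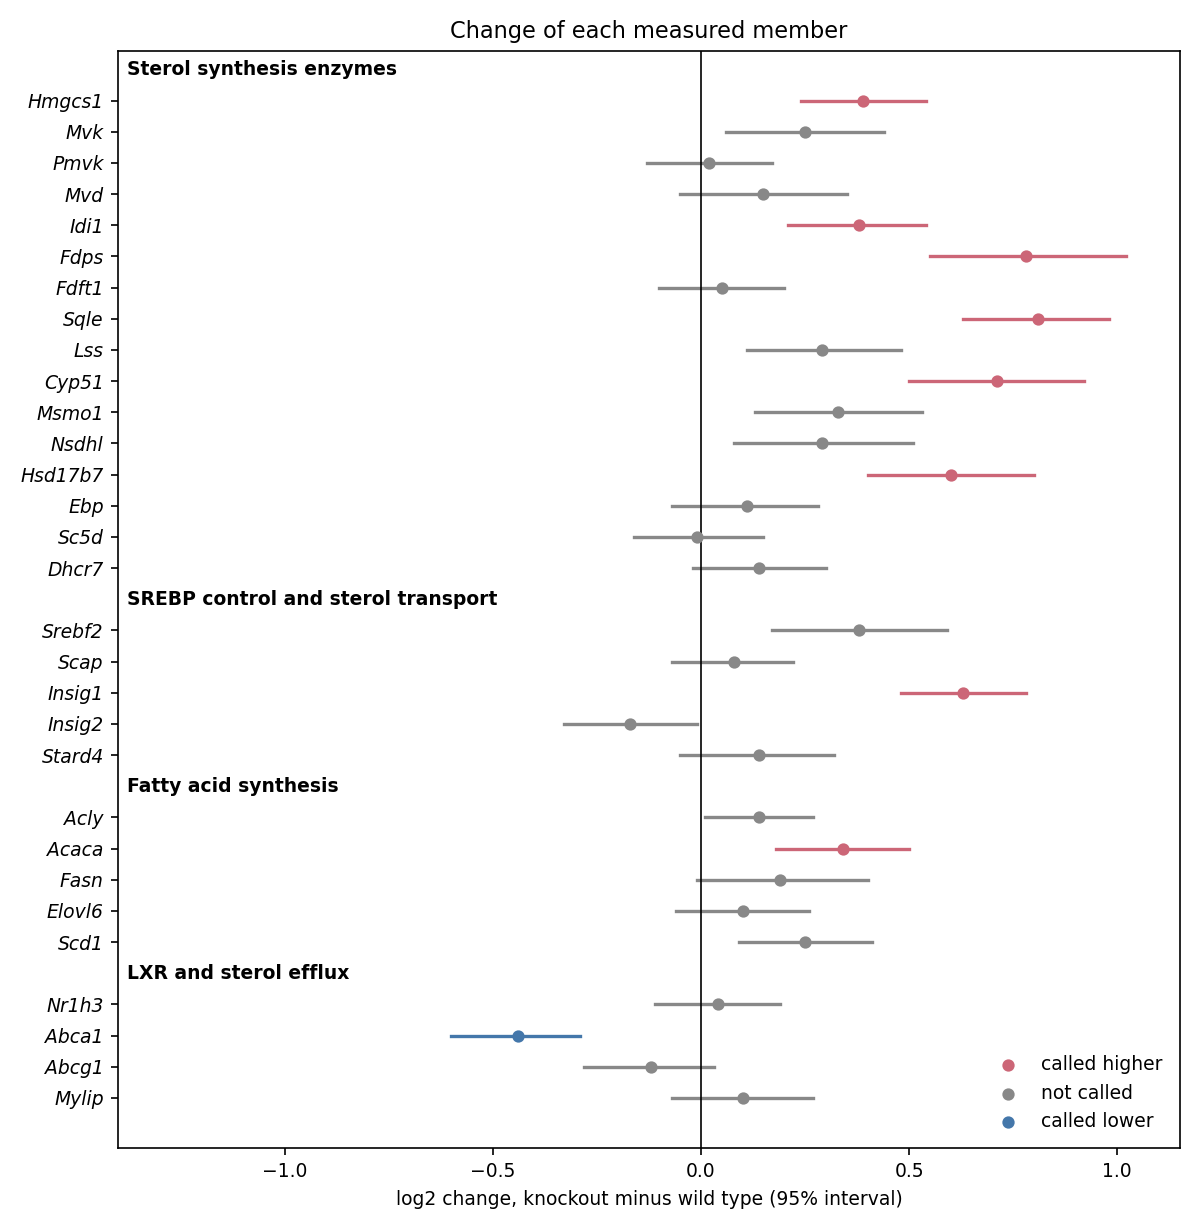
Log2 change (knockout minus wild type) of the 30 measured genes, with the 95% interval of the fit, ordered by role. Points in red were called higher, in blue lower and in grey not called (limma, adjusted p under 0.05). Sqle, Fdps and Cyp51 lie farthest to the right, and Abca1 is the 1 gene called lower.

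Hmgcs1 encodes the synthase that makes HMG-CoA, the substrate from which mevalonate is formed. Its cluster read 8.11, 8.04 and 8.07 in wild type and 8.51, 8.49 and 8.39 in knockout. The change was 0.39 (SE 0.06; limma adjusted p = 0.013), a rise of 1.31-fold with no overlap between the groups. The next enzymes of this stretch moved less. Mvk, mevalonate kinase, changed by 0.25 (adjusted p = 0.12), without overlap of the groups. Mvd, which removes the carboxyl group, changed by 0.15 (adjusted p = 0.37). Pmvk, the second kinase, read 6.15 ± 0.02 and 6.17 ± 0.07 (SD, n = 3 each), with a 95% interval for the change of -0.13 to 0.17.

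Idi1 interconverts the 5-carbon isoprene units. It read 7.34, 7.33 and 7.44 in wild type and 7.83, 7.74 and 7.67 in knockout, a change of 0.38 (SE 0.07; limma adjusted p = 0.024). Idi1 has a close relative, Idi2, and how far the probes separate them was not tested. Fdps joins isoprene units into farnesyl pyrophosphate, which feeds both sterols and protein prenylation. Fdps read 6.18, 6.35 and 6.36 in wild type and 6.93, 7.08 and 7.23 in knockout. The change was 0.78 (SE 0.10; limma adjusted p = 0.0064), or 1.72-fold, and the nearest arrays of the groups lay 0.57 apart. Fdft1, squalene synthase, which commits farnesyl units to sterols, changed by 0.05 with an interval of -0.10 to 0.20. Its groups overlapped, so the genes on either side of it in the pathway, Fdps and Sqle, rose where no rise of Fdft1 was detected.

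Sqle encodes squalene epoxidase, a rate-limiting oxygenation step. Sqle gave 6.73, 6.82 and 6.67 in wild type and 7.63, 7.46 and 7.55 in knockout. Its change of 0.81 (SE 0.07; limma adjusted p = 0.0022), a 1.75-fold rise, was the largest among all 30 genes. The lowest knockout array stood 0.64 above the highest wild-type array. Lss, which closes the ring to form lanosterol, changed by 0.29 (adjusted p = 0.079) without overlap between the groups.

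The steps from lanosterol to cholesterol were split. Cyp51, the lanosterol demethylase, read 6.99, 7.06 and 7.11 in wild type and 7.92, 7.74 and 7.64 in knockout, a change of 0.71 (SE 0.09; limma adjusted p = 0.0059), or 1.64-fold. Hsd17b7, a sterol ketoreductase, read 4.83, 4.96 and 5.05 in wild type and 5.61, 5.44 and 5.59 in knockout, a change of 0.60 (SE 0.09; limma adjusted p = 0.0095), or 1.52-fold. Both genes had well separated groups, although Hsd17b7 lay near the dim end of the scale.

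The demethylation partners of Cyp51 were higher without passing the test. Msmo1, the sterol methyl oxidase, changed by 0.33 (adjusted p = 0.062), and Nsdhl, the decarboxylase that works with it, by 0.29 (adjusted p = 0.12). In both, the lowest knockout array still exceeded the highest wild-type one. The last enzymes changed little: Ebp, the sterol isomerase, by 0.11, Dhcr7, which makes cholesterol itself, by 0.14, and Sc5d, the desaturase, by -0.01. Adjusted p-values for these 3 ran from 0.29 to 0.97. Stages were counted over the 16 measured enzymes of this list, without Lbr and Ggps1, which are given further below. By stage, 1 of 4 enzymes from Hmgcs1 to Mvd rose and 2 of 3 from Idi1 to Fdft1. Of Sqle and Lss 1 of 2 rose, and after lanosterol 2 of 7. The median changes of these stages were 0.20, 0.38, 0.55 and 0.29.

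**Figure D2:**
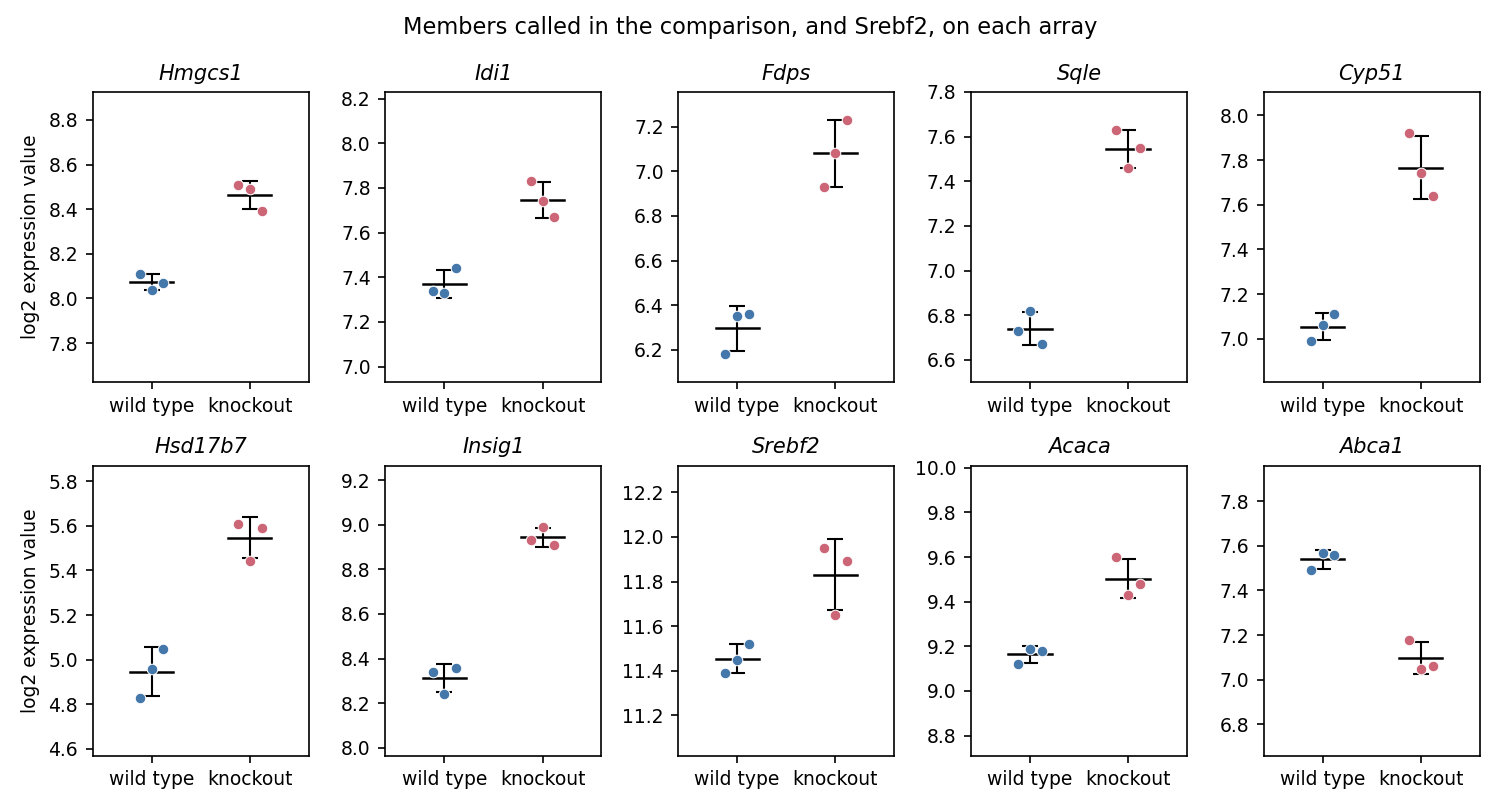
Log2 expression value on each array for the 9 called genes and Srebf2, with 3 wild-type arrays (blue) and 3 knockout arrays (red). Horizontal bars are means and error bars are SD, and every panel spans the same height on the log2 scale. In each panel the groups do not overlap, with Abca1 the 1 gene lower in the knockout.

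The promoters of 4 of these 6 enzymes and of Insig1 are shown because these genes were called higher. Sqle and Fdps had no window in the table. RefSeq windows (GRCm38.p6) reach from 250 bases before a start to 50 after it, and 24 of the 30 measured genes had at least 1. Capitals mark matches to TCACNCCAC, the core of a sterol regulatory element, to CCAAT, the box bound by NF-Y, or to CACGTG, an E-box, on either strand. In these letters ATTGG is CCAAT read on the other strand. Each stretch runs 5′ to 3′ on the gene's strand and stops before the annotated gene span.
Hmgcs1 (chr13:119690101-119690350, + strand): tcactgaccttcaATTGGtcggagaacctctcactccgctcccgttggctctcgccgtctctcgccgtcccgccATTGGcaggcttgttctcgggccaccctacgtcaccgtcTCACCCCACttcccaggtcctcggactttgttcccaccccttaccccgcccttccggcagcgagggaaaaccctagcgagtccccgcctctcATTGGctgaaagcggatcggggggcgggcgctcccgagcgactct
Idi1 (chr13:8885356-8885605, + strand): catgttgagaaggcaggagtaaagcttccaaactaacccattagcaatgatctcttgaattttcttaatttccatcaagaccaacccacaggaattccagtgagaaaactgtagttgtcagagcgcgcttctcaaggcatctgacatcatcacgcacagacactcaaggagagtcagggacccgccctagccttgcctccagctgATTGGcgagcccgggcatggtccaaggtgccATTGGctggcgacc
Cyp51 (chr5:4104698-4104947, - strand): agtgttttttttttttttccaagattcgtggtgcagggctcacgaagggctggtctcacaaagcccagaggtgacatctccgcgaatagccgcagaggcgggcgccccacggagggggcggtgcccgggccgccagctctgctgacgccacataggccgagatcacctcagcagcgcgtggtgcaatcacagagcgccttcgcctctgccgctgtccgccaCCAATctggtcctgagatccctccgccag
Hsd17b7 (chr1:169969243-169969455, - strand): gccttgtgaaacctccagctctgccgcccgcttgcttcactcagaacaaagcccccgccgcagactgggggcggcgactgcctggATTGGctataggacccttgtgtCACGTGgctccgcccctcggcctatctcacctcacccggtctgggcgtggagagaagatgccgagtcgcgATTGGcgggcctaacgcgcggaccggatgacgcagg
Insig1 (chr5:28071162-28071411, + strand): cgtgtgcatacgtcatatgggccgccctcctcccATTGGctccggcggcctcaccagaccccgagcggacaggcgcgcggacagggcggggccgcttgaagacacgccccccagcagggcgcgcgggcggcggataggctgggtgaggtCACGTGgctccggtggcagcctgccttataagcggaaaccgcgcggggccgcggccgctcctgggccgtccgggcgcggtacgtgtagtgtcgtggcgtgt

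The exact sterol core TCACNCCAC was found in 1 of the 24 genes, Hmgcs1, beginning at position -137 counted from the start. It lay in 1.41% of 17491 protein-coding genes. Variant forms of the sterol regulatory element were not searched for, so unmarked promoters may hold one. CCAAT lay in at least 1 window of 13 of the 13 sterol enzymes that had one, and of 42.3% of 17491 protein-coding genes. It was present in 5 of the 6 genes called higher that had a window and in 14 of 17 not called, so it did not mark the genes that rose. GGGCGG, the Sp1 box, lay in 12 of the 13 enzymes and 49.2% of protein-coding genes. CACGTG was in 6 of the 24 genes, beside 8.91% of protein-coding genes: Hsd17b7 and Insig1, which rose, Abca1, which fell, and Dhcr7, Sc5d and Scap, which were not called. The LXR element, a direct repeat known as DR4, was in 0 of the 24 genes and in 5 windows in all. A match describes these letters only. A window without one may still hold a variant form of an element, and says nothing about binding elsewhere.

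Among the controllers of the pathway, Insig1 rose and the others did not pass the test. Of 5 genes measured, 1 rose and 0 fell, beside 2.96% and 4.84% of all clusters, with a median change of 0.14. At an unadjusted p under 0.05, 2 were higher and 1 lower. Insig1, the endoplasmic reticulum retention protein and a target of SREBP, read 8.34, 8.24 and 8.36 in wild type and 8.93, 8.99 and 8.91 in knockout. The change was 0.63 (SE 0.06; limma adjusted p = 0.0026), or 1.55-fold, and the groups lay 0.55 apart. Its relative Insig2, which is not driven by SREBP in the same way, went from 5.62 ± 0.05 to 5.45 ± 0.08 (SD, n = 3 each), a change of -0.17 (adjusted p = 0.22). No array of Insig2 crossed between the groups either, in the opposite direction, and the difference between the 2 genes was not tested.

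Srebf2 encodes SREBP2, the main driver of the sterol enzymes. It read 11.39, 11.45 and 11.52 in wild type and 11.95, 11.65 and 11.89 in knockout, with no overlap. The change was 0.38 (SE 0.09), and its limma adjusted p of 0.052 lay just past the threshold. Knockout array 2 was the lowest of its group, and without it the change was 0.47 (limma adjusted p = 0.020). In the other 5 runs with an array left out the change was 0.32 to 0.41 and did not pass (limma adjusted p = 0.12 to 0.15). Scap, the SREBP escort, changed by 0.08 with an interval of -0.07 to 0.22. Stard4, a carrier that moves sterol between membranes, changed by 0.14 with an interval of -0.05 to 0.32. Both had overlapping groups.

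In fatty acid synthesis all 5 changes were positive, beside 50.7% of all tested clusters, and Acaca alone passed the test. Of 5 measured, 1 rose, 0 fell and 4 did not pass, beside 2.96% of clusters called higher, and changes ran from 0.10 to 0.34 with a median of 0.19. At an unadjusted p under 0.05, 3 were higher and 0 lower. The riser was Acaca, acetyl-CoA carboxylase, which makes malonyl-CoA. It read 9.12, 9.19 and 9.18 in wild type and 9.60, 9.43 and 9.48 in knockout, a change of 0.34 (SE 0.07; limma adjusted p = 0.027). This call held in 1 of 6 runs with an array left out, that without knockout array 2, and was lost in the others (limma adjusted p = 0.060 to 0.10). Shifting arrays to 1 median also ended it (0.076). In those cases 0 fatty acid genes were called higher.

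Fasn, the fatty acid synthase, read 10.47, 10.66 and 10.64 in wild type and 10.91, 10.67 and 10.77 in knockout. The groups were separated by 0.01, and the change of 0.19 had an interval of -0.01 to 0.40 (limma adjusted p = 0.25). Acly, which supplies cytosolic acetyl-CoA to both pathways, changed by 0.14 (adjusted p = 0.19), and the elongase gene Elovl6 by 0.10 (adjusted p = 0.45). Scd1, the desaturase that makes oleate, read 4.30, 4.35 and 4.42 in wild type and 4.54, 4.66 and 4.63 in knockout. Its change was 0.25 (limma adjusted p = 0.076), on a cluster close to the filter limit. A dimmer cluster of Scd1, below that limit, read 2.98 and 3.02. Scd1 belongs to a family of similar neighbouring genes, so what its clusters report is uncertain.

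In the LXR and efflux arm, Abca1 fell and nothing rose. Of 4 genes measured, 1 fell, 0 rose and 3 did not pass, beside 4.84% of all clusters called lower. At an unadjusted p under 0.05, 1 was lower and 0 higher. Abca1, which exports cholesterol and phospholipid to apolipoprotein A-I, read 7.49, 7.57 and 7.56 in wild type and 7.18, 7.05 and 7.06 in knockout. The change was -0.44 (SE 0.07; limma adjusted p = 0.011), or 1.36-fold lower, and the groups lay 0.31 apart. The call was lost without wild-type array 2 (limma adjusted p = 0.056) or 3 (0.058), with changes of -0.43 in both.

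Abcg1, which exports sterol to mature lipoprotein particles, read 9.31, 9.37 and 9.39 in wild type and 9.20, 9.17 and 9.33 in knockout. Its groups overlapped, and the change of -0.12 had an interval of -0.28 to 0.03 (limma adjusted p = 0.35). Mylip, the LXR-induced ligase that removes lipoprotein receptors, read 8.34, 8.41 and 8.35 in wild type and 8.55, 8.36 and 8.49 in knockout, a change of 0.10 (limma adjusted p = 0.49). Nr1h3, encoding LXR alpha, went from 5.24 ± 0.04 to 5.28 ± 0.05 (SD, n = 3 each), with an interval of -0.11 to 0.19. The other LXR target genes measured in this arm, Abcg1 (-0.12) and Mylip (0.10), were not called. Their difference from Abca1 was not tested, and intervals of this width leave room for small changes.

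Leaving out 1 array at a time separated firmer calls from weaker ones. Fdps, Sqle, Cyp51, Hsd17b7 and Insig1 stayed called in all 6 such runs, with limma adjusted p-values no higher than 0.044. Hmgcs1 lost its call without wild-type array 2 (limma adjusted p = 0.068) or 3 (0.066). Idi1 kept its call in 1 of 6 runs, that without knockout array 3 (limma adjusted p = 0.038), and was at 0.056 with arrays shifted to a common median. The number of sterol enzymes called higher was 4 without wild-type array 2 or 3 and 5 or 6 in the other runs. The enzymes' mean deviation from their own averages over the 6 arrays was even across arrays. It was -0.17 to -0.15 on the wild-type arrays and 0.15 to 0.18 on the knockout arrays.

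**Figure D3:**
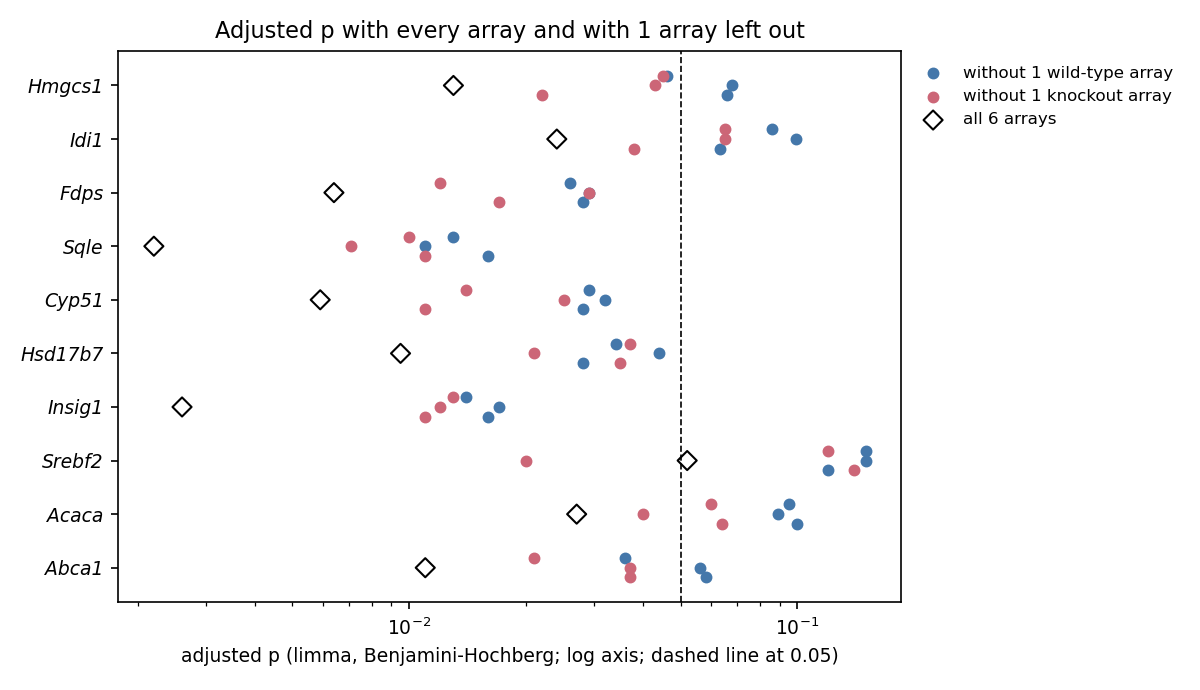
Adjusted p (limma, Benjamini-Hochberg, log axis) of the 9 called genes and Srebf2 with all 6 arrays (diamonds) and with 1 wild-type (blue) or 1 knockout (red) array left out. The dashed line marks 0.05. Fdps, Sqle, Cyp51, Hsd17b7 and Insig1 stay to its left in every run, while Idi1 and Acaca cross it in 5 of 6.

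Other genes of lipid metabolism were listed to place these changes. Of 67 such genes 47 were tested, and 6 rose, 2 fell and 39 did not pass, or 12.8% called higher beside 2.96% of all clusters. Their median change was 0.04. Neither of the remaining sterol enzymes that were measured rose: Lbr, which also anchors the nuclear lamina, changed by -0.04, and Ggps1, which makes the prenyl group for proteins, by -0.18 (0 of 2 called, and 0 at an unadjusted p under 0.05).

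Polyunsaturated fatty acid genes held the largest change on the fatty acid side. Fads2, the first desaturase of that route and an SREBP target, read 10.90, 10.94 and 10.94 in wild type and 12.10, 11.99 and 11.99 in knockout. The change was 1.10 (SE 0.05; limma adjusted p = 2.2e-04), or 2.14-fold, more than any of the 30 genes above. Elovl5, the elongase of the same route, went from 12.24 ± 0.01 to 12.60 ± 0.07 (SD, n = 3 each), a change of 0.35 (limma adjusted p = 0.0099). Leaving out wild-type array 3 ended this call (limma adjusted p = 0.052). Fads1, the second desaturase, read 9.50, 9.45 and 9.58 in wild type and 9.84, 9.65 and 9.81 in knockout. It changed by 0.26 and did not pass (limma adjusted p = 0.093), with no overlap between groups. Of 15 tested genes in this list 2 rose and 1 fell, beside 2.96% and 4.84% of all clusters. The one that fell was Oxsm, of the separate mitochondrial fatty acid route, with a change of -0.39 (limma adjusted p = 0.021), a call kept in 1 of 6 runs with an array left out.

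Of 11 lipoprotein uptake and sterol trafficking genes, 2 were called higher and 1 lower, beside 2.96% and 4.84% of all clusters. Vldlr, a lipoprotein receptor, read 7.58, 7.60 and 7.68 in wild type and 8.34, 8.36 and 8.34 in knockout, a change of 0.73 (SE 0.06; limma adjusted p = 0.0013). Gramd1b, which carries cholesterol from the plasma membrane to the endoplasmic reticulum, rose by 0.49 (limma adjusted p = 0.010), a call lost without wild-type array 3 (0.054). Stard3, which passes sterol to endosomes, changed by -0.30 (limma adjusted p = 0.037), a call lost in all 6 runs that left out an array. In a list drawn up for other genes of SREBP control 2 of 8 rose, beside 2.96% of all clusters. Whether each gene of that list acts on SREBP in these cells was not tested. Trib1, a pseudokinase linked to lipid synthesis in liver, rose by 1.11 (SE 0.10; limma adjusted p = 0.0019), and Rnf145, a sterol-responsive ubiquitin ligase, by 0.33 (limma adjusted p = 0.036). The Rnf145 call was lost in all 6 runs that left out an array (limma adjusted p = 0.056 to 0.14). Of 11 further LXR targets, partners and oxysterol enzymes, 0 were called in either direction (limma), with 2 higher and 2 lower at an unadjusted p under 0.05.

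**Figure D4:**
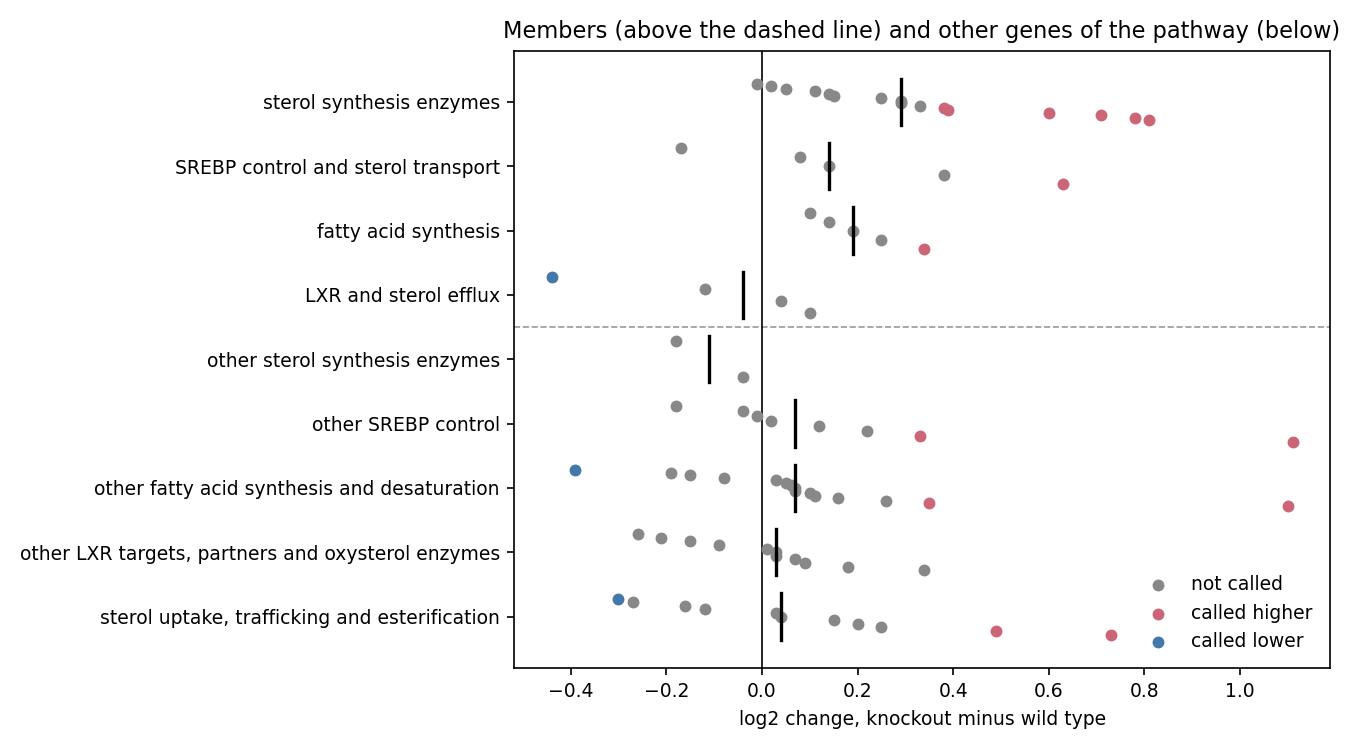
Log2 change (knockout minus wild type) of each tested gene in the 4 groups described above and in 5 lists of other lipid genes, with black bars at the median of each list. Red points were called higher, blue lower and grey not called (limma, adjusted p under 0.05). Fads2 and Trib1 lie at the far right, and the sterol enzymes have the highest median, 0.29.

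The identity of the sorted cells was read from marker lists, since in bulk samples fewer cells of a type and less RNA per cell cannot be told apart. All 10 measured HSC and early progenitor markers were above the filter limit, and 4 fell (Kit, Hlf, Meis1 and Flt3). Mean log2 levels over the 10 were 10.78 to 10.82 on wild-type and 10.45 to 10.50 on knockout arrays. In wild type the brightest were Cd34 (15.97), Kit (14.53) and Flt3 (14.51), and the dimmest Procr (7.29), Mecom (7.24) and Slamf1 (5.78). Cd48 read 11.30. Some lineage genes were bright in wild type too. Of the granulocyte list, Mpo (16.93) exceeded every HSC marker measured and Elane read 10.53, while Cebpe was dim (3.80). Of the lymphoid list, Dntt read 12.74 and Ighm 11.76, while Pax5 was dim (4.34). The name HSC used here is that of the labels. How the sorted cells divide between stem cells and progenitors was not tested. Of 8 B cell and lymphoid markers 5 fell, with mean levels of 7.35 to 7.37 and 6.68 to 6.76. Over all tested clusters, 4.84% were called lower and 2.96% higher. Of 5 tested megakaryocyte markers 3 rose, with mean levels over all 7 measured of 5.59 to 5.61 and 5.93 to 5.95, while Ppbp and Gp6 were below the limit. These marker shifts moved with the sterol enzymes across the same arrays, and their part in the enzyme changes was not tested.

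Macrophages and fat cells are known for LXR and lipid synthesis genes, so their markers were read as well. Of 9 tested macrophage and monocyte markers 0 were called (limma), beside 2.96% of all clusters called higher and 4.84% lower. At an unadjusted limma p under 0.05, 1 of these markers was higher and 0 lower. Mean levels over the 12 macrophage and monocyte markers measured were 5.82 to 5.91 in wild type and 5.88 to 5.90 in knockout. C1qa, C1qb and Mertk were below the limit, while Lyz2 (11.37), Cd68 (9.96) and Csf1r (7.58) were the brightest in wild type. In 2 of the 9 tested, Csf1r (change 0.17) and Ccr2 (0.38), every knockout array was the higher, beside 11.6% of all clusters. Of 7 adipocyte markers 5 were below the limit, Adipoq among them, and 0 of the other 2 were called (limma; 0 at an unadjusted p under 0.05). Their mean levels were 3.83 to 3.89 and 3.82 to 3.94. In the granulocyte list 1 of 9 rose (Prtn3; mean levels of 7.65 to 7.75 and 7.77 to 7.89), and in the lineage antigen list 1 of 5 (Itgam; 5.94 to 6.02 and 6.02 to 6.06), with Cd3e, Cd8a and Ms4a1 below the limit. With 1 array left out, Prtn3 kept its call in 1 of 6 runs (limma adjusted p up to 0.15) and Itgam in 4 of 6 (up to 0.075). In the erythroid list 1 of 5 fell (Car1; 5.79 to 5.87 and 5.65 to 5.67), and in the stromal and endothelial list 1 of 4 (Pecam1; 5.67 to 5.68 and 5.54 to 5.58). Car1 changed by -1.04, while the 5 tested erythroid markers had a median change of 0.05, with 3 positive and 2 negative.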

How the data were processed

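Total RNA of sorted HSCs was labelled with biotin and hybridised, per the labels. The authors deposited log2 expression values for 65956 transcript clusters on 6 arrays. The submitters' processing notes name MAS5, with no version or role. The log base was read from the values (2.04 to 19.93, array medians 4.40 to 4.48), so fold sizes depend on that reading. For normalization and genome build, the sources used here give nothing. Precision is limited by having 6 arrays.

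Symbols came from the platform annotation. It repeats a symbol within a cell, which was counted once, and older symbols were updated through the gene ID with the RefSeq gene table, for 1434 clusters. Of all clusters, 31213 then had 1 symbol, 1537 several and 33206 none. Every measured cluster lay on its gene's chromosome.

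Clusters in the lowest 40% by their average were dropped. Genotype was then fitted to the values as deposited with limma 3.58.1 in R 4.3.3 (empirical Bayes, trend on intensity). Two-sided p-values were adjusted by Benjamini-Hochberg across the 39543 clusters kept and called under 0.05. SE and 95% intervals come from the moderated fit, and SD is over 3 arrays. The fit was tested on simulated data. Tables were made with Python 3.11.15 and pandas 2.3.3, plots with matplotlib 3.10.9. The genes, lists and naming rule were chosen with earlier results of these data known. The rule named all 34 genes, with array values for called genes and a fixed set of others, and the called genes of each further list. Fads1, Lbr, Ggps1 and the marker genes were named beyond it, after their values were seen. Alternatives were the scaling, the filter, the variance model, the replicate block, each array left out and the mean of a gene's clusters.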

Additional observations from a re-analysis of the deposited data

How the results depend on the processing

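Fdps, Sqle, Cyp51, Hsd17b7 and Insig1 were called higher under every alternative run. The count of sterol enzymes called higher, 6, ran from 4 to 7, and 0 were called lower in any. Arrays of the same number did not deviate together (correlations of -0.14, -0.10 and 0.02 across clusters, and 0 of 3 wild-type arrays correlated best with their own number), so the numbers give no pairing. With the replicate block, 630 clusters were higher and 1083 lower, against 1172 and 1914. Under it 4 sterol enzymes were called higher, 0 fatty acid genes higher, 0 efflux genes lower and 0 other lipid genes lower. Hmgcs1, Idi1, Acaca and Abca1 then lost their calls. Among controllers, 2 were called higher after quantile normalization or with the dimmest 60% left out, the second being Srebf2 (limma adjusted p = 0.033 and 0.040). With a common median, 0 fatty acid genes were higher. Among other lipid genes, 10 were higher and 1 lower after quantile normalization, and 1 lower with no filter. With 1 array left out, higher clusters ran from 542 to 971 and lower from 764 to 1508. Controllers higher ran from 1 to 2, fatty acid genes higher from 0 to 1, efflux genes lower from 0 to 1, and other lipid genes higher from 3 to 5 and lower from 0 to 1. Pmvk turned to -0.01 with a common median, and ran from -0.01 to 0.05 with 1 array left out. Sc5d turned to 0.02 after quantile normalization, and ran from -0.04 to 0.02 with 1 array left out. The mean of a gene's clusters gave no test for Scd1, whose mean fell below the limit. The cause of these changes was not tested.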

Other observations

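Srebf2 carries the microRNA gene Mir33 in an intron, and the mature miR-33-5p is known to target Abca1. The array has a cluster named for Mir33 alone, looked at after the values of Srebf2 and Abca1 were seen. It read 4.86, 4.66 and 4.77 in wild type and 4.51, 4.46 and 4.49 in knockout, close to the filter limit of 4.09. The change was -0.28 (SE 0.07; limma adjusted p = 0.072, and 0.086 to 0.20 with 1 array left out), opposite in sign to that of Srebf2, with no overlap between the groups. The cluster does not separate the mature arms from the precursor or from the intron of the host transcript. The mature sequence, from RefSeq (GRCm38.p6, chr15:82198127-82198147, + strand), is shown with its seed, bases 2 to 8, in capitals.
mmu-miR-33-5p: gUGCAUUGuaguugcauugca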
